A study of Homo sapiens with 4 samples.

Results

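The regions described here were 993 peaks of the Flag-FLI1 ChIP-seq of IFN-γ-treated HK1 cells, chosen from 39654 peaks in that list. Each overlapped a peak of the control list by at least 1 bp, lay over 3 kb from every TSS annotated in GENCODE 44, and held the ETS octamer CMGGAAGT (M is A or C) wholly within 100 bp of its summit on either strand. Peaks that held there the AP-1 heptamer TGASTCA (S is C or G) or a run of at least 4 tandem GGAA cores were left out. Of 24203 IFN-γ peaks that overlapped a control peak, 9887 were distal, and the 993 were the octamer class among them. The other distal classes were 1734 peaks with a tandem run of cores, 2334 with an AP-1 heptamer and 4826 with none of these motifs. The members were thus selected on peak calls in both libraries and on sequence at the IFN-γ summit, and how many there were is no result.

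HK1 is an established nasopharyngeal carcinoma line. Both groups of cells overexpressed FLI1 with a Flag tag. They received PBS (control) or IFN-γ for 24 h, and chromatin was then precipitated with an antibody to Flag, so the signal was that of the overexpressed protein and not of endogenous FLI1. There was 1 ChIP library per condition, so no replicate error could be given and no effect of treatment was tested. The 2 input libraries were not used here. For each peak, the number of fragments piled up at the summit was recovered from the deposited fold enrichment and −log10 p. The lowest background of the control peaks was 1.06 fragments and that of the IFN-γ peaks 1.54, and their ratio, 1.46, was used as the depth scale. Intervals are exact or order-statistic 95% intervals, which cover counting error or the spread over peaks and leave out the variation between cultures.

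ETS transcription factors bind DNA through a winged helix-turn-helix domain that reads a GGAA core, and the bases on either side of the core set how well a given family member binds. FLI1 belongs to the ERG subfamily, which favours a core preceded by CA or CC and followed by GT. FLI1 is known for its roles in megakaryocytes, endothelium and blood stem cells, and its fusion to EWSR1 in Ewing sarcoma binds tandem GGAA repeats as well as single sites of the kind described here. Sites far from a TSS often lie in enhancers, where ETS proteins commonly sit beside AP-1 or RUNX factors.

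Windows of 60 bases around the octamer are shown for members whose values are given below. They are written 5′ to 3′ on the strand of the octamer, with the octamer in capitals. Among the members with the strongest peaks in both libraries, the first 2 windows carried the C form of the octamer and the next 3 the A form.
PRR7 intron, chr5:177455506-177455565, plus strand: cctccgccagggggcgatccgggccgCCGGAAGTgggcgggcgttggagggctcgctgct
ZNF629 side, chr16:30805583-30805642, minus strand: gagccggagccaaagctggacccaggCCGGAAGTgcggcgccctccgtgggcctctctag
IER2 side, chr19:13164656-13164715, minus strand: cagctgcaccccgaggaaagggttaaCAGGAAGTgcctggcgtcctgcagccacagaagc
LBR upstream, chr1:225445011-225445070, plus strand: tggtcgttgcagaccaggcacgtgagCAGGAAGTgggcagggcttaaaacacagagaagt
IL1B side, chr2:112812077-112812136, minus strand: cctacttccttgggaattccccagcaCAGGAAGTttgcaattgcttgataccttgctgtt
Members beside genes of the lists, and the members with the lowest and the highest ratios between the libraries, are shown next.
ERG upstream, chr21:38679780-38679839, minus strand: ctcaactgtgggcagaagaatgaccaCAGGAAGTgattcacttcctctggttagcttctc
ETV6 intron, chr12:11799029-11799088, minus strand: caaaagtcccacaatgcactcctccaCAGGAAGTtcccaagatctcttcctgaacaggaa
JUN downstream, chr1:58755707-58755766, plus strand: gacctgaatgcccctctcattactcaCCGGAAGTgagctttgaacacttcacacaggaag
CCND1 upstream, chr11:69599768-69599827, plus strand: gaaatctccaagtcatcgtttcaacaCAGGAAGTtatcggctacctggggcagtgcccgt
DHX35 side (lowest ratio), chr20:39050187-39050246, minus strand: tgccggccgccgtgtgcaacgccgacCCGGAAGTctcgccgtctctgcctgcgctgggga
GUCY1A1 side (high ratio), chr4:155583062-155583121, minus strand: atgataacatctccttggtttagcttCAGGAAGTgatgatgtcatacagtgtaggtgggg
GALC side (highest ratio), chr14:87430933-87430992, plus strand: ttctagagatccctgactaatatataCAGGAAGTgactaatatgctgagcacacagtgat

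The label of a single octamer held for most members but not for all. Exactly 1 octamer lay in the window of 939 members, or 94.6% (93.0% to 95.9%), while 54 held 2 or more. Of the latter, 35 held 2, 8 held 3, and 11 held between 4 and 7. Several of the windows with 3 or more octamers were short tandem repeats in which the octamer recurred at intervals, as in the whole windows below, in which every octamer is in capitals.
RIMBP2 intron, chr12:130754496-130754696, plus strand: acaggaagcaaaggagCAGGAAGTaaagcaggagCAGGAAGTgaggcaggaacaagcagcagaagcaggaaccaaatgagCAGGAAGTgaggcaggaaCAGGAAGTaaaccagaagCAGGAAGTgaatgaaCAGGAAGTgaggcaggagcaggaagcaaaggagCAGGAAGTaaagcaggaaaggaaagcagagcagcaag
KBTBD8 side, chr3:67083359-67083559, plus strand: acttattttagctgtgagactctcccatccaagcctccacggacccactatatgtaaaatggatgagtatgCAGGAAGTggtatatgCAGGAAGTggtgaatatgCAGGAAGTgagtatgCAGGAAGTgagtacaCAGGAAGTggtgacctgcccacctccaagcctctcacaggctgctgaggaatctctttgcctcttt
IRF8 side, chr16:86211876-86212076, minus strand: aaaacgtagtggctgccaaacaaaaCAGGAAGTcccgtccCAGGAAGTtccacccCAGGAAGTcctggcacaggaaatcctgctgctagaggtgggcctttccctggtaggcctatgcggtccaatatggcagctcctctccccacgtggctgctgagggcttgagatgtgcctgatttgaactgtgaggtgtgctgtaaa
The RIMBP2 intron window held 7 octamers with pileups of 27 fragments in the control library and 41 with IFN-γ. The window 84.5 kb from KBTBD8 held 5, with pileups of 25 and 70, and that 297.9 kb from IRF8 held 3, with pileups of 33 and 40. More octamers did not go with a markedly higher signal: the median IFN-γ fold enrichment was 10.3 (7.76 to 12.6) for members with 2 or more octamers and 8.94 (8.55 to 9.46) for those with 1, and the intervals overlapped.

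The octamer lay close to the summit in both libraries. Its centre was a median of 17.5 bp (15.5 to 18.5) from the IFN-γ summit, which the rule used, and 62.9% of members had it within 25 bp. The same octamer lay a median of 24.5 bp (22.5 to 27.5) from the control summit, with 51.0% within 25 bp and 72.6% within 50 bp. In 869 members, or 87.5% (85.3% to 89.5%), an octamer lay wholly within 100 bp of the control summit. The windows 1 kb either side, where the rule required no octamer, held one in 1.76% (1.23% to 2.44%). The 2 summits of a member lay a median of 24 bp apart, against 29 bp over all shared distal peaks, and 982 members overlapped a single control peak. Closeness to the control summit thus follows in large part from the rule on the IFN-γ summit and is given as a description. The octamer was on the plus strand in 50.3% of members.

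**Figure D1:**
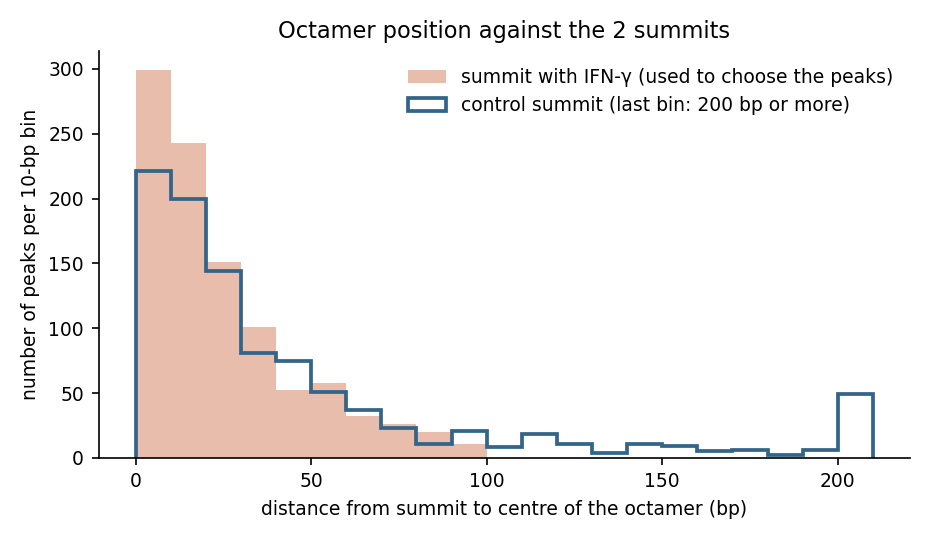
Number of the 993 peaks per 10-bp bin (y axis) by the distance in bp from the summit to the centre of the octamer (x axis), for the IFN-γ summit (filled) and the summit of the paired control peak (line); the octamer is the one nearest to the IFN-γ summit, and distances of 200 bp or more share the last bin. Both distributions are highest in the first bin, and the medians are 17.5 bp and 24.5 bp.

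With IFN-γ the signal was higher where the octamer lay nearer to the summit. Members with the octamer up to 10 bp from the IFN-γ summit had a median IFN-γ fold enrichment of 10.0 (9.32 to 11.5). The median was 9.35 (8.71 to 10.4) at 10 to 25 bp, 8.63 (7.76 to 9.47) at 25 to 50 bp and 6.90 (6.31 to 7.85) beyond 50 bp. Over the same bins, set by the IFN-γ summit, the control medians did not follow this order, at 7.31, 7.73, 6.84 and 6.64. The control intervals of the nearest bin (7.12 to 7.85) and the farthest (6.23 to 7.30) overlapped. Control signal was not split by distance to the control summit, so the libraries are not compared like for like. The position and the height of a summit come from the same reads, so the relation is given as a description.

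Most members carried the A form, CAGGAAGT. It was the nearest octamer in 865 members, or 87.1% (84.9% to 89.1%), and the C form, CCGGAAGT, in 128. At shared peaks near a TSS that met the same sequence rule, 913 of 2141, or 42.6% (40.5% to 44.8%), had the A form. Among the 973 distal peaks with the octamer in the IFN-γ list alone, the A form made up 92.2% (90.3% to 93.8%). The C form holds a CG dinucleotide, which is rare in the genome away from CpG islands, and of 134366 distal octamers in the genome, 93.0% were of the A form.

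Set against how often each form occurs, the C form was under a shared distal summit more often. Of 9447 distal C-form octamers in the genome, 167 lay within 100 bp of a shared distal summit of any class, or 1.77% (1.51% to 2.05%), against 1262 of 124919 A-form octamers, or 1.01% (0.956% to 1.07%). Members with the C form also had the stronger peaks. Their median fold enrichment was 12.5 (10.0 to 14.5) with IFN-γ and 8.84 (8.08 to 10.4) in the control, against 8.63 (8.28 to 9.10) and 7.17 (6.84 to 7.30) for the A form. The ratio between the libraries differed little by form, with medians of 1.27 (1.17 to 1.44) for the C form and 1.22 (1.19 to 1.28) for the A form. Base composition moved with the form as well: the windows of C-form members had a median GC content of 52.2% against 48.8% for the A form, and the part of GC content in the difference in fold was not tested.

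The bases next to the octamer were not those of octamers at large. The rule used these bases only where an AP-1 heptamer would reach over or adjoin the octamer, and the part of that was not tested. An A preceded the octamer in 413 members, or 41.6% (38.5% to 44.7%), and in 24.04% of distal octamers of the genome. A G followed it in 513 members, or 51.7% (48.5% to 54.8%), and in 30.4% of distal octamers. Both together were present in 208 members, or 20.9% (18.5% to 23.6%), beside 7.01% in the genome. The windows of the JUN and ERG members shown above have both, and the window of the GALC member, with the highest ratio, does too. Of the A-form octamers with neither base, 0.516% (0.463% to 0.574%) lay under a shared distal summit. The share was 1.23% with the A alone, 1.35% with the G alone and 3.04% (2.69% to 3.42%) with both. For the C form it was 1.19% (0.905% to 1.54%) with neither and 6.03% (4.28% to 8.21%) with both, or 37 of 614 octamers. The median IFN-γ fold enrichment of members with both bases was 9.88 (9.20 to 11.5), against 8.67 (8.32 to 9.25) with other bases, and the control medians were 7.19 (6.65 to 7.46) and 7.31 (7.10 to 7.69). These shares count octamers wherever reads could or could not be placed, and the part of mappability and open chromatin was not tested.

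**Figure D2:**
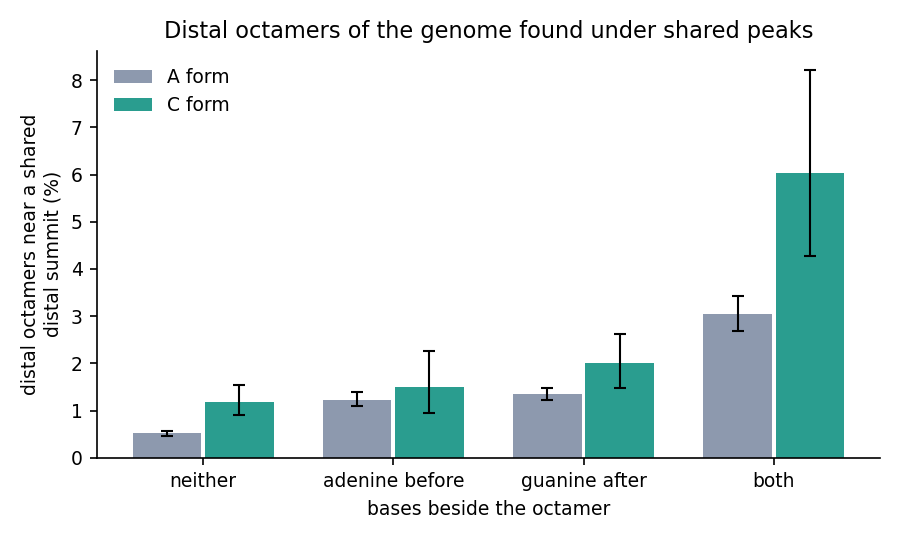
Share in % (y axis) of all distal octamers of the genome that lie within 100 bp of a shared distal summit, by the bases beside the octamer (x axis) and by form (A form grey, C form green); bars are shares and lines exact 95% intervals for counting error. The share runs from 0.516% for the A form with neither base to 6.03% for the C form with both.

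The median fold enrichment of members was above that of all shared distal peaks in both libraries. Their summit pileups ran from 6 to 173 fragments in the control library, with a median of 18, and from 8 to 261 with IFN-γ, with a median of 33. The median fold enrichment was 7.29 (7.10 to 7.49) in the control library and 8.96 (8.60 to 9.46) with IFN-γ, beside 6.73 and 8.32 over all shared distal peaks. At a q-value under 1e-05 in both lists the IFN-γ medians were 9.88 (9.46 to 10.5) and 9.67 (9.49 to 9.86), with overlapping intervals. In the control library this was the highest of the 4 distal classes, the others lying between 6.49 and 6.68. With IFN-γ the class with a tandem run stood above it, at 11.1 (10.9 to 11.5). By −log10 p, 181 members (18.2%) were in the top 10% of the IFN-γ list and 64 (6.45%) in the top 10% of the control list, beside 13.8% and 4.27% of all shared distal peaks. The background at the summit was much like that of shared distal peaks as a whole, with medians of 1.44 and 2.55 fragments against 1.43 and 2.48. The deposited fold adds the same small constant to pileup and background, which lowers it more at the lower background of the control library. Fold values of the control and IFN-γ libraries are therefore not on a like scale. Most single values rest on few fragments, since 57.3% of members had under 20 fragments in the control library.

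**Figure D3:**
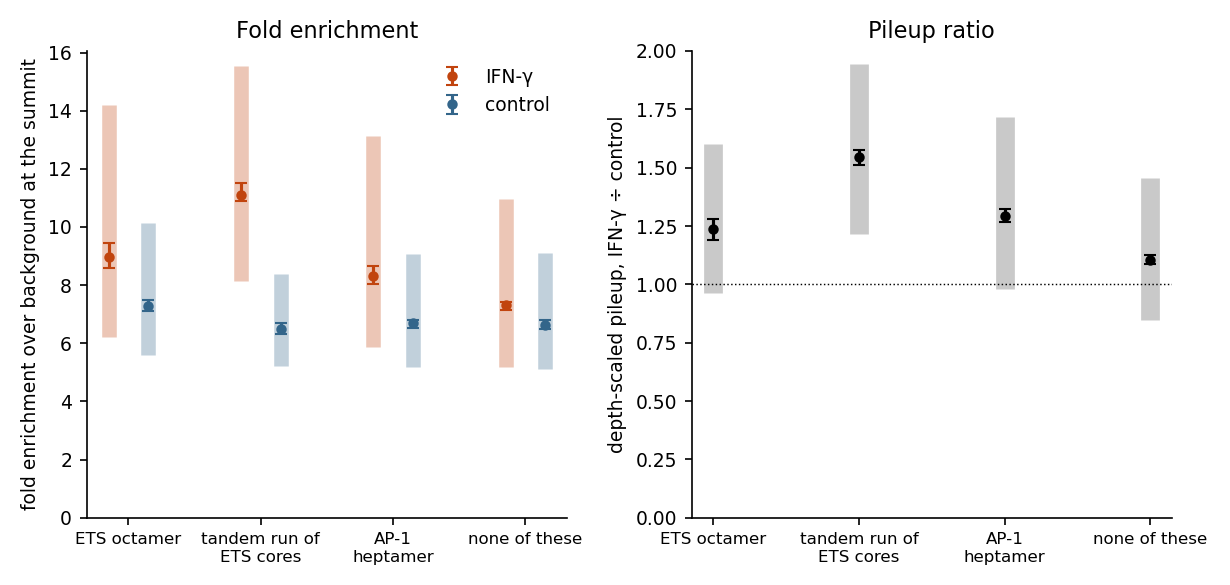
Left, fold enrichment at the summit (y axis) of the 4 classes of shared distal peaks (x axis) with IFN-γ (orange) and in the control (blue); right, the depth-scaled pileup ratio of IFN-γ to control. Points are medians with order-statistic 95% intervals and bars span the quartiles over peaks; the octamer class has the highest control median, 7.29, and a ratio of 1.24 between those of the run and motif-free classes, 1.55 and 1.11.

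The strongest member in both libraries lay in an intron of PRR7, a membrane protein of synapses and lymphocytes, 5.12 kb downstream of a TSS of DBN1, which encodes the actin-binding protein drebrin (chr5:177454555-177456559). At its summit 173 control and 261 IFN-γ fragments were piled up, a fold enrichment of 83.4 and 53.5. Scaled for depth, the ratio was 1.04 (0.852 to 1.26). The window of this member holds a C-form octamer in a CG-rich stretch, 9.5 bp from the IFN-γ summit and 6.5 bp from the control summit.

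Further strong members had ratios on both sides of 1. An intergenic member 8.69 kb from HSPBAP1 (chr3:122732740-122733464) had 119 control and 255 IFN-γ fragments, a ratio of 1.47 (1.18 to 1.85). The member 18.4 kb upstream of ZNF629, a zinc-finger gene (chr16:30805211-30806008), had 99 and 176 fragments, a ratio of 1.22 (0.949 to 1.58). Upstream of LBR, the lamin B receptor gene, a member 16.1 kb from the TSS (chr1:225444628-225445503) had 91 and 162 fragments, a ratio of 1.22 (0.940 to 1.60). These 3 members were thus higher with IFN-γ after scaling, the interval being above 1 for the HSPBAP1 member alone. Here and below, intervals of single members are set against 1, which stands for equal scaled pileups. The median ratio of all shared distal peaks was 1.24, and the HSPBAP1 interval held that value. An interval above 1 that holds 1.24 does not set a member apart from distal peaks at large. The member 12.7 kb downstream of IER2, an immediate early gene (chr19:13163811-13164930), had 99 and 136 fragments, a ratio of 0.943 (0.723 to 1.24). A member in an intron of USP20, which encodes a deubiquitinase, had the same pileups and so the same ratio.

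In an exon of MEF2B, a transcription factor gene (chr19:19145811-19146495), the pileups were 79 and 121 fragments, a ratio of 1.05 (0.786 to 1.42). The member 7.99 kb from LINC00899, whose nearest protein-coding TSS is that of the Wnt ligand gene WNT7B at 58.9 kb (chr22:46035674-46036410), had 155 and 152 fragments. Its ratio was 0.674 (0.535 to 0.848), the one member of the 12 strongest whose interval lay below 1. At the other end, the member 21.5 kb downstream of IL1B, the gene of the cytokine interleukin-1β (chr2:112811628-112812359), had 65 control and 181 IFN-γ fragments, a ratio of 1.91 (1.43 to 2.58). A member 8.52 kb upstream of CCN4, which encodes a secreted matricellular protein, had 70 and 190 fragments, a ratio of 1.86 (1.41 to 2.49). The remaining 2 of the 12 lay 106 kb and 119 kb from any TSS, with BET1 and COPS8 the nearest protein-coding genes, and had ratios of 1.86 (1.39 to 2.49) and 2.06 (1.52 to 2.82).

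Between the libraries the members had the same median ratio as distal peaks at large. The median depth-scaled ratio of IFN-γ to control was 1.24 (1.19 to 1.28), equal to the 1.24 (1.22 to 1.25) of all shared distal peaks, while all shared peaks had 0.996 and shared peaks near a TSS 0.870 (0.859 to 0.874). The class with a tandem run had 1.55 (1.51 to 1.57), the AP-1 class 1.29 (1.27 to 1.32) and the motif-free class 1.11 (1.09 to 1.12). Of the members, 110, or 11.1% (9.19% to 13.2%), were at least 2-fold higher with IFN-γ, beside 12.8% of all shared distal pairs and 7.35% of all shared pairs. Only 7, or 0.705% (0.284% to 1.45%), were at least 2-fold lower, beside 1.54% and 5.66%. The share of members that were higher was near that of distal peaks at large and is no result about the octamer. The share that were lower was below that of distal peaks, on 7 members. It was 0.686% in the AP-1 class, 0.115% in the class with a tandem run and 2.63% in the motif-free class. A low share was thus not particular to members. Treatment and any other difference between the 2 libraries cannot be told apart.

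**Figure D4:**
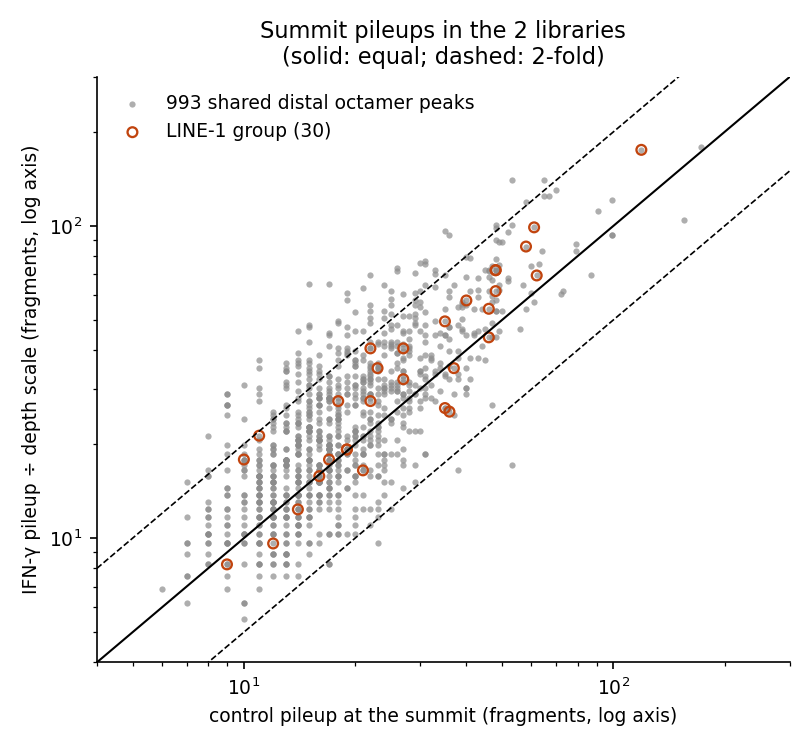
Pileup at the control summit (x axis, fragments, log scale) against the pileup at the IFN-γ summit divided by the depth scale (y axis, fragments, log scale) for the 993 members (grey) and the LINE-1 group among them (orange circles). The solid line marks equal values and the dashed lines 2-fold differences; 110 members lie on or above the upper dashed line and 7 on or below the lower one.

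Among the 398 members with at least 60 fragments over both libraries, the 6 highest and 6 lowest ratios were looked up. This limit on the sum is passed more readily by pairs that are high in the deeper IFN-γ library, so it favours high ratios. The highest was in an intron of a non-coding gene, 519 kb from the nearest protein-coding TSS, that of GALC, which encodes the lysosomal enzyme galactosylceramidase (chr14:87430645-87431269). It had 15 control and 95 IFN-γ fragments, a ratio of 4.35 (2.51 to 8.08). The member 83.6 kb upstream of GUCY1A1, which encodes a subunit of soluble guanylate cyclase (chr4:155582877-155583468), had 17 and 95 fragments, a ratio of 3.84 (2.28 to 6.86). Its octamer centre lay 0.5 bp from the IFN-γ summit and 29.5 bp from the control summit.

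The others of the 6 had ratios between 3.21 and 3.37, with the lower bounds of their intervals between 1.74 and 1.94. Those in introns lay in RAMP1, an accessory subunit of the calcitonin gene-related peptide receptor, and SKAP1, a T cell adaptor gene. The remaining ones lay 15.7 kb from CDK17 and 144 kb from ZNF184. At the ZNF184 member the octamer was 35.5 bp from the IFN-γ summit but 160.5 bp from the control summit. In all 6 the control pileup was low, between 11 and 19 fragments, and the IFN-γ pileup was 54 to 95.

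The lowest ratio was at an intergenic member 19.8 kb downstream of a TSS of DHX35, an RNA helicase gene (chr20:39049962-39050328). It had 53 control and 25 IFN-γ fragments, a ratio of 0.324 (0.193 to 0.531), with a C-form octamer 10.5 bp from the IFN-γ summit. A member 24.1 kb upstream of LINC00239 (chr14:101706024-101706669) had 38 and 24 fragments, a ratio of 0.434 (0.249 to 0.742). The member in an intron of TTLL8, 14.9 kb upstream of IL17REL, had 47 and 39 fragments, a ratio of 0.570 (0.363 to 0.890). The WNT7B member above was among the 6 as well. An ADAMTS12 intron member and one 13.1 kb from MIR1299 had ratios of 0.668 (0.410 to 1.09) and 0.706 (0.434 to 1.15), with intervals that held 1.

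The members lay mostly in introns and between genes. The summit was in an intron in 542, or 54.6% (51.4% to 57.7%), intergenic in 417 (42.0%) and in an exon in 34 (3.42%), close to the 53.3%, 43.8% and 2.86% of all shared distal peaks. The median distance to the nearest TSS was 12.9 kb (11.9 to 14.2), 384 members lay within 10 kb, and 25 lay over 100 kb away. Signal differed little by location: the median IFN-γ fold enrichment was 8.95 in introns, 8.84 between genes and 10.4 (7.65 to 12.6) in exons. Members were scattered over the genome, with 429 in the bodies of 434 protein-coding genes, some of which overlap, and 36 members within 10 kb of another. Of these genes, 27 held 2 or more, and the only one with at least 4 was ETV6.

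ETV6 encodes an ETS repressor that is disrupted by translocations in leukaemia, and its 4 members lay in introns. The strongest, shown above, lay 46.6 kb downstream of the nearest ETV6 TSS (chr12:11798888-11799282) and had 23 control and 32 IFN-γ fragments, a ratio of 0.956 (0.542 to 1.71). The others had 13 and 25, 11 and 16, and 8 and 15 fragments, with ratios of 1.32, 0.999 and 1.29. All 4 intervals held 1.

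Other ETS genes had members as well. In all, 4 of 26 ETS family genes, or 15.4% (4.36% to 34.9%), were the nearest gene or the host of a member, beside 4.91% of all protein-coding genes. The member 18.0 kb upstream of ERG, the closest paralogue of FLI1 (chr21:38679540-38680092), was the strongest of them. It had 29 control and 103 IFN-γ fragments, a ratio of 2.44 (1.60 to 3.82). The 2 members in introns of ELF4, a further ETS activator, went different ways, with 22 and 47 fragments at the one (ratio 1.47, 0.867 to 2.56) and 23 and 17 at the other (ratio 0.508, 0.255 to 0.993). A member 411 kb from ETS1, with the TSS of LINC02725 nearer at 42.7 kb, had 13 and 44 fragments, a ratio of 2.32 (1.23 to 4.70).

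Genes of the factors that often sit beside ETS proteins were next. Of 20 AP-1, RUNX and TEAD genes, 3 had members (15.0%, 3.21% to 37.9%). The member 28.3 kb downstream of JUN (chr1:58755252-58756168) had 47 and 108 fragments, a ratio of 1.58 (1.11 to 2.27), and a second, 125 kb upstream, had 32 and 56 and a ratio of 1.20 (0.765 to 1.92). RUNX3 had an intronic member 9.75 kb from its TSS with 15 and 47 fragments, a ratio of 2.15 (1.18 to 4.14). The 2 members at ATF3, the gene of a stress-induced AP-1 factor, had ratios of 1.04 (0.702 to 1.55) and 0.893 (0.479 to 1.69).

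Of 32 genes of IFN-γ signalling and response, 2 had a member (6.25%, 0.766% to 20.8%), beside 4.91% of all protein-coding genes. At STAT3, a transcription factor of cytokine signalling, an intronic member (chr17:42367075-42367467) had 30 control and 50 IFN-γ fragments, a ratio of 1.14 (0.714 to 1.86). The other was the IRF8 member shown above, with a ratio of 0.833 (0.512 to 1.36). It lay 297.9 kb from IRF8, with the TSS of LINC01081 nearer at 11.1 kb. Of 15 kynurenine pathway, AHR and acetyltransferase genes, 2 had members (13.3%, 1.66% to 40.5%). AHR, the receptor that kynurenine activates, had one in an intron of its annotated body (chr7:17041312-17041753), 90.7 kb upstream of the nearest AHR TSS. The TSS of BRWD1P3 was nearer, at 8.03 kb. This member had 32 and 55 fragments, a ratio of 1.18 (0.750 to 1.89). A weaker one 198 kb from an AHR TSS had 12 and 17 fragments, a ratio of 0.973 (0.438 to 2.23). The KMO member lay in the stretch shared by KMO, which encodes kynurenine 3-monooxygenase, and OPN3 (chr1:241591950-241592327). It had 11 and 25 fragments and a ratio of 1.56 (0.741 to 3.51). All 5 intervals held 1.

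Of 25 squamous epithelial genes, 4 had members (16%, 4.54% to 36.1%). The CCND1 member, 41.4 kb upstream of this cyclin D1 gene (chr11:69599480-69599937), had 24 and 60 fragments, a ratio of 1.72 (1.05 to 2.88), and its gene is also on the list of EWSR1-FLI1 targets. The strongest of the MYC members lay 105 kb upstream of that proto-oncogene, with 18 and 71 fragments and a ratio of 2.71 (1.60 to 4.83). The other 2, 429 kb and 576 kb downstream, had 11 and 20 and 9 and 16 fragments, with ratios of 1.25 (0.570 to 2.89) and 1.22 (0.508 to 3.13). The KLF5 member, 347 kb from the gene, had 13 and 50 fragments (ratio 2.64, 1.41 to 5.30), and the EGFR intron member 17 and 21 (ratio 0.848, 0.426 to 1.71).

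Among 18 EWSR1-FLI1 target genes of Ewing sarcoma, 3 had a member (16.7%, 3.58% to 41.4%), and among 20 targets of native FLI1 in megakaryocytes, endothelium and fibroblasts, 1 had (5%, 0.127% to 24.9%). Besides CCND1, the member 14.8 kb upstream of PPP1R1A, a phosphatase inhibitor gene (chr12:54603185-54603659), had 16 and 56 fragments, a ratio of 2.40 (1.36 to 4.49). The member nearest to IGFBP3, 638 kb from this growth factor binding protein gene, had 14 and 16 fragments, a ratio of 0.785 (0.359 to 1.74). The native target was TNC, the gene of tenascin-C, 474 kb from its member, which had 22 and 47 fragments, a ratio of 1.47 (0.867 to 2.56). For each of the 7 lists the interval of the share held the 4.91% of all protein-coding genes, and nearness to a gene does not show that a member acts on it.

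The largest set of members with alike sequence came from one kind of repeat. When the 168 bases around the octamer were compared between members, 30 members on 13 chromosomes formed a group with a median pairwise edit distance of 11.3%, while the nearest member outside it differed by 44.6%. The likeness ran from about 200 bases before to 600 after the octamer, and the sequence was recognised as the 5′ end of LINE-1, a retrotransposon that spread through the genome by copying its RNA into DNA. No repeat annotation was used. The short stretch around the octamer of 1 member is shown with the 8 bases of the octamer in capitals.
LINE-1 member beside FRG2DP, chr16:35468862-35468891, plus strand: attgcctcactCAGGAAGTgcaagaggtca
All 30 held exactly 1 octamer, the A form in 27 and the C form in 3, and 21 were intergenic and 9 intronic.

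These members were stronger than the rest. Their median fold enrichment was 12.8 (9.25 to 18.5) in the control library and 15.6 (9.71 to 21.7) with IFN-γ, against 7.24 (6.998 to 7.44) and 8.84 (8.46 to 9.39) for the other 963, and 12 of them were among the 100 members with the best mean rank. Pileups ran from 9 to 119 fragments in the control library and from 12 to 255 with IFN-γ. The HSPBAP1 member described above is one of them. A member in an intron of PRDM11 (chr11:45127912-45128573) had 61 control and 144 IFN-γ fragments, and the one beside FRG2DP 48 and 90. At the low end, the member 56.9 kb from AREG, the gene of the growth factor amphiregulin, had 9 and 12 fragments. The ratio between the libraries had a median of 1.22 (1.01 to 1.48) and a range of 0.706 to 1.94, so none of the 30 reached a 2-fold difference in either direction.

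Copies of the element across the genome, most of which were not members, allowed the site to be compared. Members were chosen for an octamer in a shared peak, so the octamer copies in shared peaks can be members themselves. The 20 bases that follow the base after the octamer in the group's consensus were found in 2370 copies. The octamer stood at the site in 82 of them, and 25 of these, or 30.5% (20.8% to 41.6%), lay in a shared peak. Of the 2288 copies with other bases there, 59 did, or 2.58% (1.97% to 3.31%). The commonest site, TGGGAAGC, was in a shared peak in 8 of 1083 copies, or 0.739% (0.319% to 1.45%), and CGGGAAGC in 12 of 503 (2.39%). With the last base of the octamer it was 14 of 192 for CGGGAAGT (7.29%, 4.04% to 11.9%) but 4 of 166 for TGGGAAGT (2.41%, 0.660% to 6.05%), and with its leading bases, CAGGAAGC, 9 of 124 (7.26%, 3.37% to 13.3%). CAGGAAGT was in a shared peak in 21 of 75 copies (28.0%, 18.2% to 39.6%) and CCGGAAGT in 4 of 7 (57.1%, 18.4% to 90.1%). In each list alone the order from TGGGAAGC to CCGGAAGT was much the same, with 1.75% and 28.0% of the TGGGAAGC and CAGGAAGT copies in control peaks and 1.48% and 32.0% in IFN-γ peaks. The element was found because it recurs among members, the copies differ elsewhere too, and the study's methods name no filter on mapping quality for the ChIP-seq, so how reads were placed among copies was not tested.

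Other short motifs were compared between the windows of members, the windows beside them and the other classes. The RUNX hexamer TGTGGT was in 16.3% (14.1% to 18.8%), against 13.8% (12.3% to 15.4%) of the windows 1 kb away, 13.2% of the motif-free class and 10.6% of all IFN-γ peaks. The E-box CAGCTG was in 12.7% (10.7% to 14.9%), against 8.76% of flanking windows and 12.3% of the motif-free class. The SP box GGGCGG was in 9.57% (7.81% to 11.6%), against 4.53% of flanking windows, 12.02% of the motif-free class and 21.1% of all IFN-γ peaks. The STAT pattern TTCNNNGAA, which can overlap a GGAA core, was in 8.06% (6.44% to 9.93%), against 6.45% and 7.15%. The IRF motif was in 3.02% (2.05% to 4.28%), against 3.22% of flanking windows, 5.59% (4.96% to 6.28%) of the motif-free class and 7.96% of all IFN-γ peaks. That last share includes the shared distal class with a tandem run, which the rule kept out of the members and of which 21.7% held it. All motifs were searched on both strands. Outside the 100 bp around the summit, but within the peak, 168 members (16.9%) held an AP-1 heptamer.

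Values at the edges of the rule were as follows. The member closest to a TSS, 3001 bp from that of ARHGEF1, had fold enrichments of 4.79 in the control library and 5.02 with IFN-γ, while the peak left out by the smallest margin, 2993 bp from ADAMTS7, had 17.4 and 24.1. The member with the octamer farthest from its summit, at 96.5 bp beside ST3GAL3, had 7.07 and 6.38, and a peak beside FGGY with it at 97.5 bp, left out, had 6.602 and 6.19. The member with the longest run, of 3 cores, beside STRA8, had 5.17 and 7.39, and a peak beside EFNB1 with an octamer and a run of 4, left out, had 15.1 and 16.7. The smallest overlap between the 2 lists was 11 bp, at a member beside MT4 with 4.76 and 3.38.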

How the data were processed

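Per the methods of the study and the submitters' processing notes, adapters were removed with Cutadapt 1.18, Bowtie2 2.3.4.1 placed the read pairs on GRCh38, Picard took out duplicates, and the authors called peaks per library with MACS2 2.1.2 at a p-value cutoff of 0.01. The lowest −log10 p among members was 4.10 in the IFN-γ list and 3.78 in the control list, so all members were well past that cutoff. Whether the input was used in calling is not given in the sources used here. The deposited narrowPeak lists hold, per the authors' peak caller, the fold enrichment at the summit (a ratio to the local background), the −log10 of the p-value and q-value, and the summit offset. The fold was taken as pileup over background with the same small constant added to both, which lowers it most where the background is low. From the deposited fold and −log10 p of a peak, its pileup (a whole number) and background were solved, and −log10 p was returned to within a relative error of 6.21e-06. The lists give no read totals, so the ratio of the lowest backgrounds served as the depth scale.

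Members were found by the stated rule, each paired with the control peak of largest overlap. TSSs, introns and exons came from GENCODE 44, and sequence from the GRCh38 assembly. Nearest genes follow the closest protein-coding TSS unless another is named, and the host is a protein-coding gene whose body holds the summit. Members were grouped by sequence at an edit distance of at most 36% (edlib 1.3.9.post1), a limit chosen after the data were seen. The members and the gene lists were chosen with earlier results of these data known. The genes named were those of the 12 members with the best mean rank by −log10 p over both libraries, of the 6 highest and 6 lowest ratios among members with at least 60 fragments, of the 25 best-ranked members at a listed gene, of members at the edges of the rule and genes with at least 4 members, and at a listed gene so named its other members were given as well. The windows with 3 or more octamers and the LINE-1 members were named after their values were seen. Intervals are Clopper-Pearson for shares, exact binomial for ratios and order-statistic for medians. With 1 library per condition no test was made. Recovery, motif classes, overlaps and distances were tested on simulated data, and each returned 100% of the known answers. The simulated fold and −log10 p came from the same formulas that the recovery inverts. That test thus checks the code and not whether the deposited values follow those formulas. Alternatives were other definitions of distal, shared and octamer windows, q-value cutoffs, scalings and pairings. Python 3.11.15, numpy 2.4.6, scipy 1.17.1, pandas 2.3.3 and pysam 0.24.0 were used.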

Additional observations from a re-analysis of the deposited data

How the results depend on the processing

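Of 129 values recomputed under another setting, 118 stayed within the interval of the reported value or, for counts, within 1.5 times it. The median ratio between the libraries stayed between 1.21 and 1.27 over 14 alternatives. Of these, only the scaling to a median of 1 over all shared pairs changed the depth scale, from 1.456 to 1.45. The alternatives thus could not show how the ratio depends on that scale. With a limit of 10 kb from a TSS there were 597 members, of which 51.4% were in introns, and this follows from the narrower rule. With the octamer within 50 bp of the summit, the median distance became 13.5 bp, the share with 1 octamer 96.6% and the share with an octamer near the control summit 90.5%. That last share became 95.2% with summits within 100 bp of each other and 90.8% at a q-value under 1e-05. At this cutoff the median fold enrichments became 9.88 with IFN-γ and 7.94 in the control, and that of all shared distal peaks with IFN-γ became 9.67 (9.49 to 9.86), so the intervals of members and distal peaks at large overlapped there. With the TSSs of protein-coding genes only, the A form made up 84.7%. With an overlap of at least 50% of each peak, 8.83% of members were at least 2-fold higher with IFN-γ. Other causes were not tested. Settings added after the data were seen left out the LINE-1 group, kept members with 1 octamer, or moved the limit on edit distance to 25% or 40%, and none of these changed a value beyond its interval. No paired analysis was possible because 1 ChIP library stood for each condition. At the median control pileup of 18 fragments, counting error leaves wide intervals on the ratio of a single peak.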

Other observations

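Members also differed by how many GGAA cores, on either strand, lay in the window, which the rule used only for tandem runs. The median was 4 cores, the octamer's own included, as it was over all shared distal peaks and in the motif-free class, against 2 in the windows 1 kb away, and 51 members (5.14%) held no core beside that of the octamer. The median ratio of IFN-γ to control was 1.33 (1.24 to 1.44) for members with 1 or 2 cores, 1.27 (1.20 to 1.32) with 3 or 4, 1.17 (1.099 to 1.25) with 5 or 6 and 1.102 (0.999 to 1.22) with 7 or more. The IFN-γ fold enrichment showed no such order, with medians of 9.58, 8.84, 9.02 and 8.68. The split was made after the data were seen, and no explanation was tested.

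A few smaller sets of members had alike sequence. A group of 4 held the STAT3 intron member, with 30 control and 50 IFN-γ fragments, and one beside RAB44 with 9 and 42. A group of 3 lay on chromosome 7, in windows with 6 or 7 octamers each, of which 1 is in an intron of DPP6, and their control and IFN-γ pileups were 29 and 25, 14 and 22, and 16 and 22 fragments. The octamer class held 1966 distal IFN-γ peaks in all, of which 50.5% (48.3% to 52.7%) were shared. Over all 21027 distal IFN-γ peaks, 47.0% (46.3% to 47.7%) were shared. The other 973 of the octamer class were called with IFN-γ alone. They had a median fold enrichment of 5.60 (5.50 to 5.89) and a median pileup of 17 fragments. Members also had to be called in the control library, of lower depth by the scale used here. The rule itself thus favours stronger peaks among members, and the lower signal of the 973 is given as a description.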
